A study of Homo sapiens with 15 samples.

Results

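The genes of the tight junction were followed across 3 human cell lines labelled as oral and across YBX1 knockdown in 2 of them. The set was chosen by name, with earlier results of these data known: CLDN1, CLDN4, CLDN7, OCLN, TJP1, TJP3, F11R, CGN and MARVELD2. Of these 9 genes, 6 were analysed among the 12995 genes listed for every library, namely CLDN1, CLDN4, CLDN7, F11R, TJP1 and CGN. OCLN, TJP3 and MARVELD2 were not analysed here. Tight junctions seal the space between neighbouring epithelial cells near their apical side. Claudins are the 4-pass membrane proteins whose strands form the seal and set which ions pass, junctional adhesion molecules join them from the immunoglobulin family, and a cytoplasmic plaque of ZO proteins and cingulin ties the strands to actin and myosin. The claudins studied here are typical of epithelia, and tight junctions are a feature of the upper layers of stratified epithelium such as that of the mouth.

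RNA was sequenced in 15 libraries, 3 for each of 5 groups. OKF6 derives from normal oral epithelium, and its libraries carry no label for an inducible guide. SCC15 and SCC25 are labelled as oral cancer lines and were transduced with Cas9 and a doxycycline-inducible guide against YBX1, which encodes a Y-box DNA- and RNA-binding protein, and sorted as pools for both fluorescent reporters. The +YBX1 groups carried the guide without induction, and the –YBX1 groups received doxycycline at 1 µg/ml for 3 days. A serum-free keratinocyte medium with 0.3 mM calcium chloride was used for OKF6 and SCC25, whereas SCC15 was kept in DMEM with 10% foetal bovine serum, so line and medium (calcium and serum included) cannot be told apart wherever SCC15 is compared with another line. The construct likewise separates OKF6 from both cancer lines. No library received doxycycline without the YBX1 guide, so loss of YBX1 cannot be told apart from effects of doxycycline or of cutting by Cas9. Nothing states that replicates were separate cultures, so p-values measure the spread between these libraries, which may be technical.

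Libraries were made from the 3′ ends of mRNA, and the reads counted on listed genes numbered 4075290 to 6118501 per library. Values are log2 CPM, the log2 of counts per unit of normalised library size (CPM) with 0.5 added to each read count, and whole reads were recovered for 100% of them. On this scale 3 reads, the floor of detection, amount to at most 0.677 CPM. Levels are compared between groups for the same gene, not between genes. Because these are bulk samples, fewer cells expressing a gene and less RNA per cell cannot be told apart. The stratified epithelial markers chosen for this work (12 genes, among them KRT5, KRT14, TP63 and DSG3) summed to between 28963 and 39040 CPM in OKF6, between 14237 and 25909 in SCC25 +YBX1, but only between 91.9 and 125 in SCC15 +YBX1. TP63 and DSG3 were at 3 reads or fewer in every SCC15 library, as was LAMB3 in the –YBX1 ones. The other markers exceeded 3 reads in at least 1 library of each SCC15 group. By their sums the keratinocyte markers were nearly absent from the cells labelled SCC15, which goes against a squamous epithelial label. The authors report short tandem repeat profiling of all lines, and the identity of SCC15 was not tested here. Every comparison with SCC15 is one with the cells labelled so, and the part of the missing markers in the results was not tested. Of the 10 fibroblast markers only 2 were analysed, and of the 6 endothelial markers 0 were analysed. The sums of the 2 fibroblast markers overlapped between OKF6 and the +YBX1 groups. They were 32.1 to 62.0 CPM in SCC25 –YBX1, above SCC15 +YBX1 (11.3 to 30.2) and SCC15 –YBX1 (11.9 to 29.3). LUM, 1 of the 2, was at 3 reads or fewer in every OKF6 and SCC25 +YBX1 library, but not throughout the other groups.

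The 6 genes lie on 5 chromosomes (hg38, GENCODE 44), all annotated as protein coding. CLDN1 is at chr3:190305707-190322446 on the minus strand, CLDN4 at chr7:73799542-73832690 on the plus strand and CLDN7 at chr17:7259903-7263983 on the minus strand. F11R, which encodes JAM-A, is at chr1:160995211-161021343 on the minus strand. TJP1, which encodes ZO-1, is at chr15:29699367-29968915 on the minus strand, and CGN, which encodes cingulin, is at chr1:151510510-151538692 on the plus strand. The last 500 bases of the CLDN7 transcript, the part from which 3′ libraries draw reads, overlap ELP5 on the opposite strand and a read-through gene on the same strand. The strand setting of the read counting is not given in the sources used here, so CLDN7 counts carry that uncertainty. When pieces of 75 bases from the last 500 bases were mapped back to the genome, 2 of 83 pieces of F11R (2.41%) fitted as well elsewhere, and none of 86 did so for each of the other genes.

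Promoter sequences are given for the 3 claudins, which nearly vanished from SCC15, and for CGN, which alone was higher in SCC15 than in SCC25. They span 250 bases before to 50 bases after the annotated start (RefSeq, GRCh38.p14), and 5 of the 6 genes matched the promoter table, F11R being the exception. The E-box CACCTG, read as CAGGTG on the other strand, is the sequence that ZEB and SNAI repressors are known to recognise. It was searched on both strands and is in capitals.

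CLDN7, chr17:7262429-7262728, minus strand: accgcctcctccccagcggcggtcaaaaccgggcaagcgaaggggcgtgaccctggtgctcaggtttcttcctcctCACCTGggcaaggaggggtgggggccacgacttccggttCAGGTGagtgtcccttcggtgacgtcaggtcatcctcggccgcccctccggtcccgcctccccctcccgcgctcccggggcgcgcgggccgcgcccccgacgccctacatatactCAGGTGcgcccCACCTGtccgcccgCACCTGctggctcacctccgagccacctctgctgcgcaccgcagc

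CLDN1, chr3:190322397-190322696, minus strand: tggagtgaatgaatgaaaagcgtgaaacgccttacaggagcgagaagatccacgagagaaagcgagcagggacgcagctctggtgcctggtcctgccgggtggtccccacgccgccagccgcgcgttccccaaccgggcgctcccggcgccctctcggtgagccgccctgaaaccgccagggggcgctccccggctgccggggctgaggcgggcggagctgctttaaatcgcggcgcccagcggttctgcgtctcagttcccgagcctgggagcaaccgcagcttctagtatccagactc

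CLDN4, chr7:73830746-73831045, plus strand: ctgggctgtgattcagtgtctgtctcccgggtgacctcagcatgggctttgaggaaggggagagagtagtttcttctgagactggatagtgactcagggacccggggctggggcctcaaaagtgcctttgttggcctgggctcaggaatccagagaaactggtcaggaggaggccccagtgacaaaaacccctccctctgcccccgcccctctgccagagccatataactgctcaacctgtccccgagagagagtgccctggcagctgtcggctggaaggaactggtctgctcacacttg

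CGN, chr1:151511137-151511436, plus strand: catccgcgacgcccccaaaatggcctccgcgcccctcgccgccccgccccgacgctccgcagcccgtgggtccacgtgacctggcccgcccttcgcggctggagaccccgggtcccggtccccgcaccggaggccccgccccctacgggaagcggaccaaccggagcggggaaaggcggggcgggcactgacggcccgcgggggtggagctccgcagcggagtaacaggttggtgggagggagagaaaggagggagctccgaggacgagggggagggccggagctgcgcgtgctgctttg

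The CLDN7 promoter held 5 matches, at positions -174, -135, -20, -9 and 5 from the start. Of 35116 promoters of the same length in the table, 20.6% held at least 1 match, and 33 (0.094%) held 5 or more, a number set by CLDN7 itself. A further annotated CLDN7 promoter held 0 matches. The CLDN1, CLDN4 and CGN windows held 0 matches. Of 4 promoters of TJP1, 1 held a single match, at -88. The grainyhead motif AACCGGTT, searched on both strands and present in 0.134% of all promoters, was found in none of these windows. A match describes the letters in the window and not a bound site.

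In SCC15, all 3 claudins were close to the floor of detection. CLDN1, a claudin of the epidermal barrier, had 6.40, 6.86 and 6.34 log2 CPM in the OKF6 libraries, 5.66, 6.61 and 5.74 in SCC25 +YBX1, and 0.24, -1.25 and -1.38 in SCC15 +YBX1. The SCC15 values correspond to 6, 2 and 2 reads, against at least 257 reads in every library of the other lines. The log2 change from OKF6 to SCC15 was -7.33 (SE 0.46, adjusted p = 4.79e-07, limma) and that from SCC25 to SCC15 was -6.80 (SE 0.46, adjusted p = 9.59e-07). OKF6 and SCC25 overlapped for CLDN1, with a change from OKF6 to SCC25 of -0.53 (95% interval -1.54 to 0.48, adjusted p = 0.410).

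CLDN4, which is known to limit the passage of sodium, had 3.06, 4.59 and 5.48 log2 CPM in OKF6 and 3.00, 3.00 and 1.13 in SCC25 +YBX1. Its reads in SCC15 +YBX1 numbered 2, 0 and 1, so pooled reads give the size of its difference better than the log2 scale does. On pooled reads CLDN4 was 158-fold lower in SCC15 than in OKF6 (counting interval 53.8 to 771), and 36.1-fold lower than in SCC25 (12 to 178). These intervals cover counting error alone. The fitted differences passed the test against OKF6 (adjusted p = 6.08e-05, limma) and against SCC25 (adjusted p = 0.00101). In OKF6 and the +YBX1 groups, the spread within groups was widest for this gene among the 6, with an SD of 1.22 log2 units in OKF6. SCC25 lay below OKF6 in every library, by a change of -2.0 (SE 0.83, 95% interval -3.84 to -0.17), but the adjusted p was 0.0928. Without OKF6 replicate 1, the lowest of that group, the change was -2.66 and passed the test (adjusted p = 0.0264).

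CLDN7, a claudin also found along the lateral membrane of epithelial cells, stood at 5.31, 5.31 and 5.52 log2 CPM in OKF6, at 5.44, 4.60 and 4.44 in SCC25 +YBX1, and at 0.24, -1.25 and -0.24 in SCC15 +YBX1. The SCC15 libraries held 6, 2 and 5 reads of it. The change was -5.79 from OKF6 to SCC15 (SE 0.44, adjusted p = 1.74e-06, limma) and -5.24 from SCC25 to SCC15 (SE 0.44, adjusted p = 4.76e-06). Between OKF6 and SCC25 the libraries overlapped, with a change of -0.55 (95% interval -1.53 to 0.43, adjusted p = 0.379). Summed over the 3 claudins, the level was 161 CPM ± 25.5 (SD, n = 3) in OKF6, 103 ± 26.3 in SCC25 +YBX1 and 1.49 ± 0.963 in SCC15 +YBX1.

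**Figure D1:**
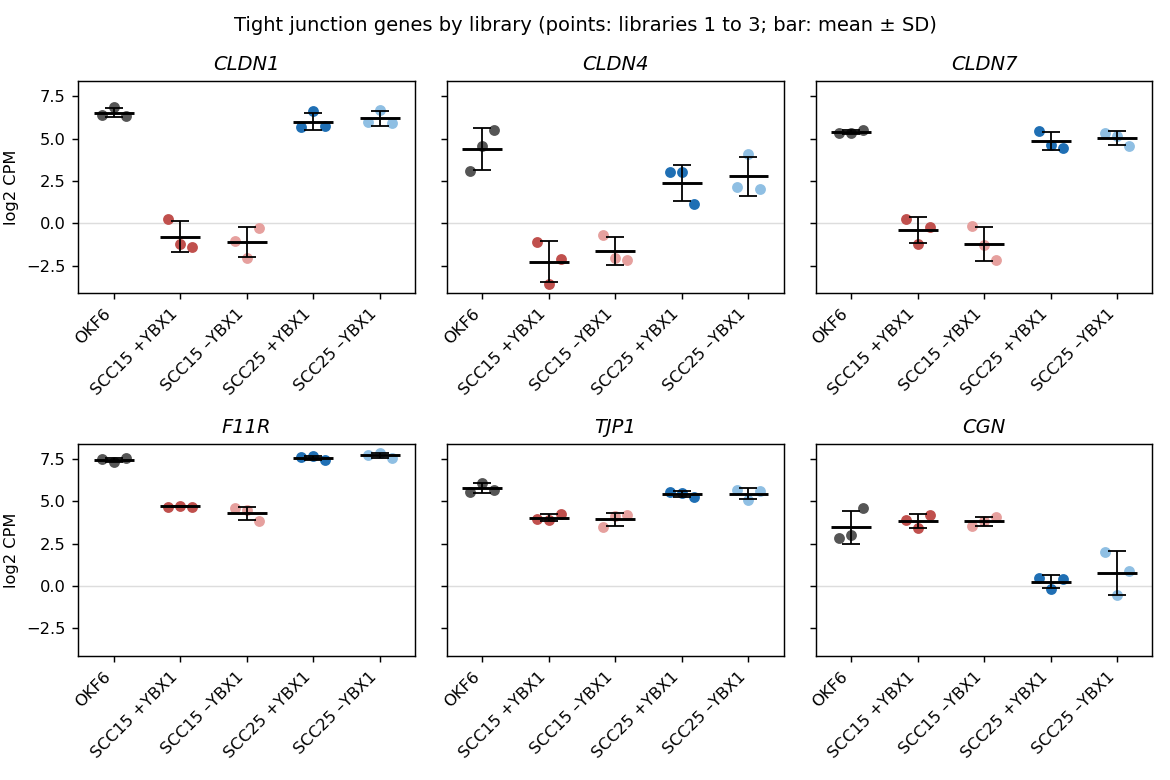
Level of each tight junction gene in log2 CPM (vertical axis) in the 3 libraries of each of the 5 groups (points), with the mean (wide bar) and SD (error bar). CLDN1, CLDN4 and CLDN7 lie near or under 0 in both SCC15 groups, F11R and TJP1 are lower there but well above 0, and CGN is lowest in both SCC25 groups.

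F11R and TJP1 were lower in SCC15 as well but remained expressed. F11R, the junctional adhesion molecule of epithelia, had 7.49, 7.32 and 7.52 log2 CPM in OKF6, 7.60, 7.66 and 7.43 in SCC25 +YBX1, and 4.67, 4.73 and 4.67 in SCC15 +YBX1. The SCC15 libraries were tightly grouped and lay below all others, at 139 to 165 reads. SCC15 was 6.74-fold lower than OKF6 (log2 change -2.75, SE 0.16, adjusted p = 3.51e-07, limma) and 7.32-fold lower than SCC25 (-2.87, SE 0.16, adjusted p = 3.44e-07). OKF6 and SCC25 overlapped, with a change of 0.12 (95% interval -0.24 to 0.47, adjusted p = 0.609) that turned to -0.11 under quantile normalisation.

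TJP1, the ZO-1 scaffold to which claudins bind by their tails, had 5.57, 6.1 and 5.68 log2 CPM in OKF6, 5.55, 5.50 and 5.23 in SCC25 +YBX1, and 3.93, 3.92 and 4.27 in SCC15 +YBX1. Every SCC15 library was below every library of the other lines. The difference was 3.35-fold against OKF6 (log2 change -1.75, SE 0.23, adjusted p = 8.49e-05, limma) and 2.61-fold against SCC25 (-1.39, SE 0.23, adjusted p = 0.000578), the smallest among the genes that were lower in SCC15. SCC25 lay just below OKF6 in every library, but the change of -0.36 (95% interval -0.86 to 0.14) did not pass the test (adjusted p = 0.261).

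CGN had another order of lines. This gene for cingulin, a plaque protein that binds ZO-1 and myosin, had 2.81, 3.00 and 4.60 log2 CPM in OKF6, 3.91, 3.42 and 4.21 in SCC15 +YBX1, and 0.50, -0.17 and 0.43 in SCC25 +YBX1. The SCC25 libraries held 7, 4 and 6 reads, against 35 to 143 in OKF6 and 63 to 120 in SCC15. CGN was lower in SCC25 than in OKF6 by a log2 change of -3.22 (SE 0.53, adjusted p = 0.00132, limma) and was higher in SCC15 than in SCC25 by 3.60 (SE 0.53, adjusted p = 0.000263). OKF6 and SCC15 overlapped, with a change of 0.38 (95% interval -0.79 to 1.55, adjusted p = 0.577).

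By comparison, 5 of the 6 genes were lower in SCC15 than in OKF6 and none was higher, where 23.4% of all genes tested were called lower and 26.9% higher. Their median log2 change was -4.27, beside 0.10 for all genes. Between SCC15 and SCC25 all 6 genes passed the test, 5 lower and CGN higher in SCC15, beside 23.6% of all genes lower and 20% higher. The median was -3.76 for the 6 genes and -0.01 for all genes. Between SCC25 and OKF6 only CGN passed, among 11.3% of genes called lower and 18.9% higher, and the medians were -0.54 and 0.13. The 3 comparisons share libraries and are not independent of each other. Since the genes were chosen with earlier results of these data known, the shares and medians describe them and test nothing. Setting library medians equal moved the median of all genes from 0.10 to 0.26 for SCC15 against OKF6, and quantile normalisation moved it from -0.01 to 0.17 for SCC15 against SCC25 and from 0.13 to -0.05 for SCC25 against OKF6. Each shift was smaller than every called difference of the 6 genes.

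**Figure D2:**
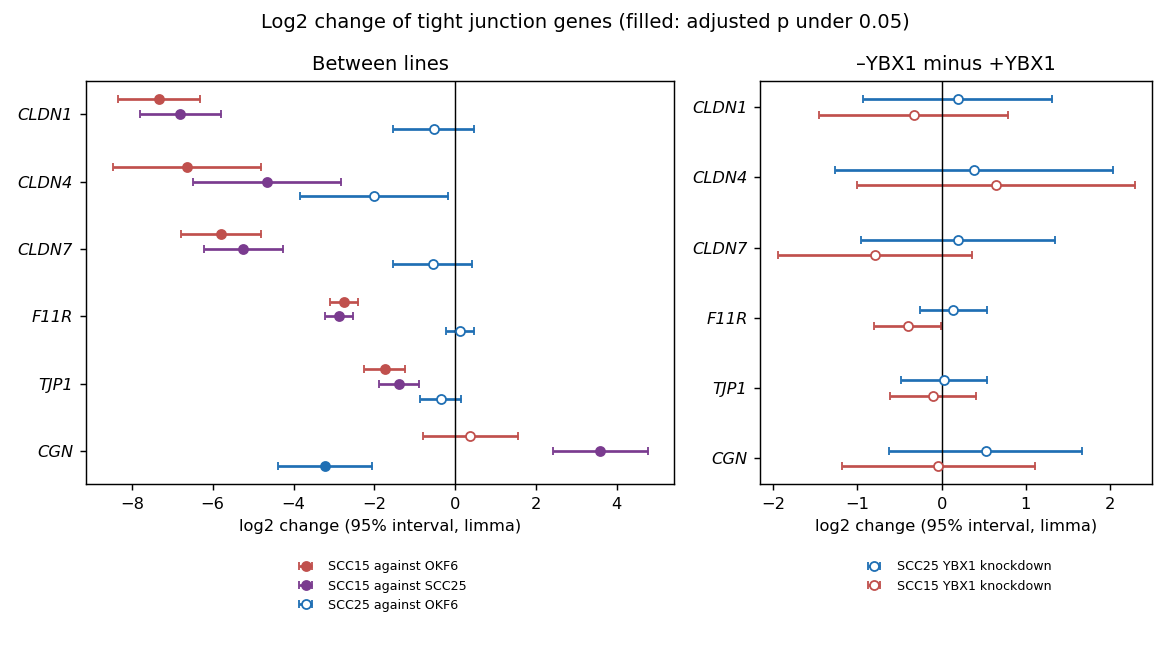
Log2 change of each tight junction gene (horizontal axis) with its 95% interval from limma, between lines on the left and for –YBX1 minus +YBX1 on the right, with filled points at an adjusted p under 0.05. Both SCC15 comparisons lie far below 0 for the claudins, F11R and TJP1, CGN passed the test in the comparisons with SCC25, and all knockdown intervals but that of F11R in SCC15 span 0.

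Across the 15 libraries the levels of CLDN1, CLDN4, CLDN7, F11R and TJP1 rose and fell together, with Pearson's r between 0.876 and 0.985, whereas CGN had r between -0.697 and -0.464 with the others. The libraries fall into 3 lines, so these coefficients describe the lines and carry no p. Outside the tight junction lists, the genes most like the mean of the 6 were SLPI (r = 0.99), SMTN, AHNAK and HIVEP2 (each 0.988) and IL4R (0.985), over the same 15 libraries.

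The other genes of the pathway divided between both directions. A list of 60 further pathway genes, grouped by role, had 10 genes higher and 23 lower in SCC15 than in SCC25. The list takes in 12 signalling partners and 11 transcription factors, which held 4 and 7 of the lower calls. Among all genes 20% were called higher and 23.6% lower. The median log2 change was -0.58 for the list and -0.01 for all genes. Against OKF6, SCC15 had 15 of the 60 higher and 26 lower, beside 26.9% and 23.4% of all genes. SCC25 had 9 higher and 9 lower, beside 18.9% and 11.3% of all genes. The named genes below are among those with the largest called change between SCC15 and SCC25 in each role, without overlap between libraries.

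Among the 3 other claudins, CLDN11, known from myelin and the testis, had 42 to 72 reads in SCC25 +YBX1 and 0 in every SCC15 +YBX1 library. It was at least 20.2-fold lower in SCC15 than in SCC25, taking 3 reads per library as the floor, and in OKF6 it had at most 1 read. CLDN15, known from the intestine, was higher in SCC15 than in SCC25 by 1.74 (SE 0.49, adjusted p = 0.0143, limma). CLDN15 had 99 to 118 reads per SCC15 +YBX1 library, in the line where CLDN1, CLDN4 and CLDN7 were near the floor.

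Of the 10 other membrane proteins, 3 were higher and 5 lower in SCC15 than in SCC25, beside 20% and 23.6% of all genes. The junctional adhesion molecules JAM3 and JAM2, relatives of F11R known from endothelium among other tissues, went the other way from F11R. JAM3 had 836 to 851 reads in SCC15 +YBX1 and at most 4 in SCC25 +YBX1 (log2 change 8.38, SE 0.80, adjusted p = 1.07e-05, limma). JAM2 had 15 to 24 reads in SCC15 +YBX1 and 0 in every SCC25 +YBX1 library, at least 5.66-fold higher. EPCAM, a surface glycoprotein known to bind claudins, was lower (log2 change -5.04, SE 0.45, adjusted p = 6.77e-06). EPCAM is also one of the epithelial markers above.

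In the plaque, 2 of 14 scaffold genes were higher and 3 lower, near the shares of 20% and 23.6% of all genes. AMOT, an angiomotin that binds the plaque and Hippo pathway proteins, had at most 5 reads in a library of SCC25 +YBX1 and between 2622 and 3535 in SCC15 +YBX1 (log2 change 10.63, SE 1.21, adjusted p = 4.10e-05, limma). Its relative AMOTL2 was lower (-3.39, SE 0.37, adjusted p = 3.31e-05). MPDZ, a multi-PDZ scaffold, was higher by 1.52 (adjusted p = 0.0305).

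Among 10 polarity genes, 1 was higher and 3 lower, beside 20% and 23.6% of all genes. PARD6G (-1.97), PARD3 (-1.93), which places the junction-building PAR complex, and DLG1 (-1.65) were the lower ones, with adjusted p of 6.40e-05, 5.26e-05 and 1.00e-04 (limma). PARD6B was higher by 1.35 (adjusted p = 0.0484). Of 12 signalling partners, 1 was higher and 4 lower, beside the same shares of all genes. MYL9, a myosin light chain of contractile actomyosin, had 70 to 81 reads in SCC25 +YBX1 and 0 in each SCC15 +YBX1 library, at least 27.4-fold lower, and MYLK, the kinase of myosin light chains, changed by -1.90 (adjusted p = 0.00415). VAPA changed by -1.09 (adjusted p = 0.000641) and ARHGEF11, a RhoA activator that binds ZO-1, by 1.13 (adjusted p = 0.0444). YBX3, a Y-box protein like YBX1 that is known to bind ZO-1, had a mean level of 8.11 log2 CPM in OKF6, 7.98 in SCC15 +YBX1 and 7.96 in SCC25 +YBX1, and these overlapped.

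Of 11 transcription factors known to act on tight junction genes, 7 were lower in SCC15 than in SCC25 and 2 higher, beside 23.6% and 20% of all genes. GRHL2, a grainyhead factor that is known to activate claudin genes, had 57 to 81 reads in SCC25 +YBX1 and 1 read in all 3 SCC15 +YBX1 libraries together, a read ratio of 231 (counting interval 41.0 to 9167, adjusted p = 3.38e-06, limma). OVOL1, an epithelial zinc-finger repressor, had 5 reads in SCC15 +YBX1 against 188 in SCC25 +YBX1, a read ratio of 44.3 (18.65 to 138, adjusted p = 0.000142, limma). Its relative OVOL2 had 3 reads in SCC15 +YBX1 against 53 in SCC25 +YBX1, a read ratio of 20.8 (6.75 to 104, adjusted p = 0.00121). KLF5 changed by -3.93 (SE 0.27, adjusted p = 1.24e-06). The 2 factors that were higher, named after their values were seen, were ZEB1 (3.55, SE 0.56, adjusted p = 0.000431) and ZEB2, E-box repressors of epithelial genes. ZEB2 had 51 reads in SCC15 +YBX1 against 5 in SCC25 +YBX1, a read ratio of 8.66 (3.48 to 27.8, adjusted p = 0.00741, limma). SNAI2, another E-box repressor and also named after its value was seen, was lower in SCC15 by a change of -1.99 (SE 0.43, adjusted p = 0.00334).

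**Figure D3:**
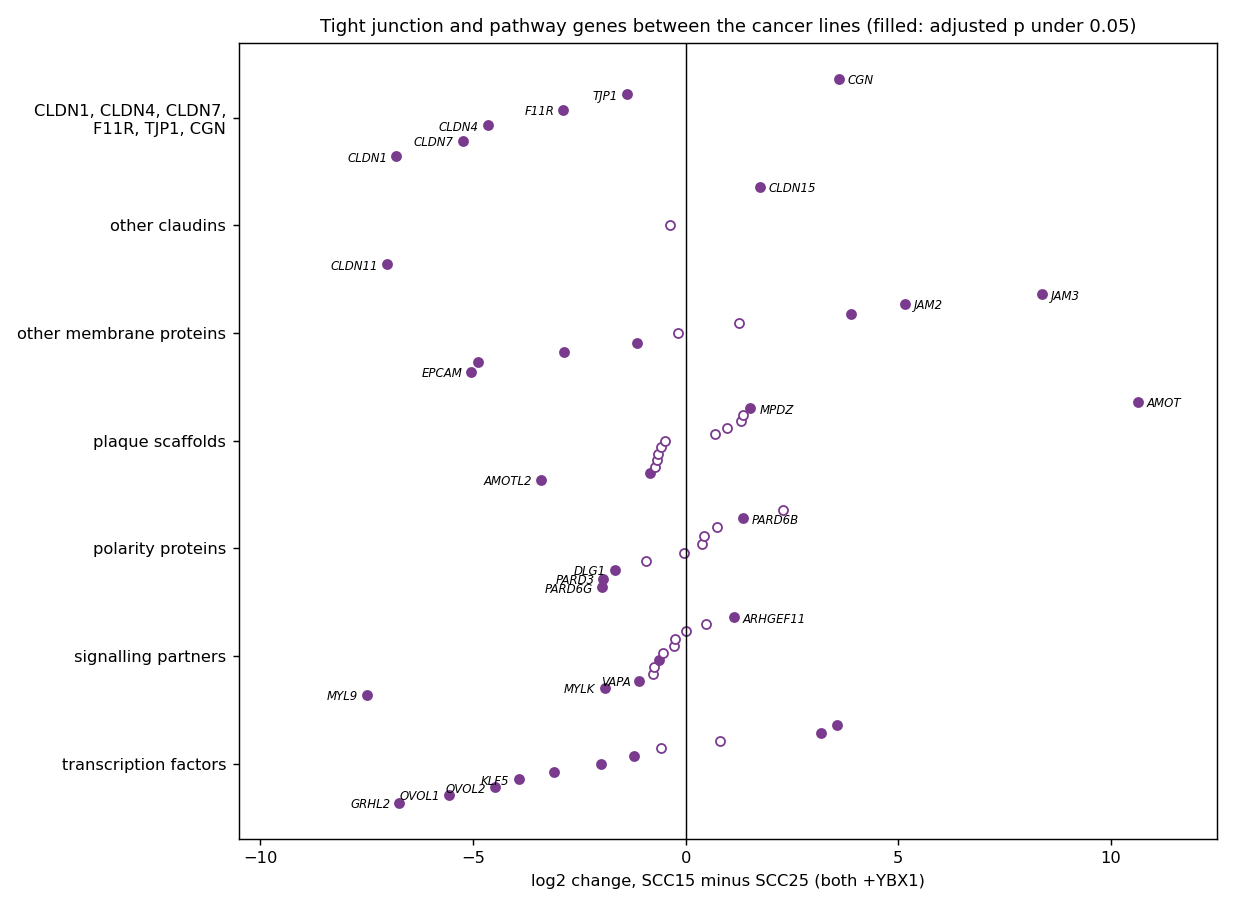
Log2 change from SCC25 to SCC15, both +YBX1 (horizontal axis), of the 6 tight junction genes and of further pathway genes, each point a gene, in rows by role, filled at an adjusted p under 0.05 and labelled where named by the rule. Changes run from -7.49 (MYL9, fitted at 0 reads in SCC15) to 10.63 (AMOT), and both directions occur in every role, and the 4 labelled transcription factors lie below 0, with ZEB1 and ZEB2 among the unlabelled points above it.

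The knockdown comparisons asked whether the junction genes changed when the YBX1 guide was induced with doxycycline. YBX1 itself had 6.74, 6.31 and 6.62 log2 CPM in SCC25 +YBX1 and 5.26, 4.70 and 3.65 after induction. The SCC15 libraries had 5.11, 5.56 and 6.00 before and 3.36, 3.71 and 3.13 after induction. All –YBX1 libraries were below all +YBX1 libraries of their line, with changes of -2.01 (adjusted p = 0.290, limma) and -2.15 (adjusted p = 0.326), neither of which passed the test over all genes.

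None of the 6 tight junction genes passed the test after knockdown, in a setting where the background was 0% of genes for SCC25, 0% for SCC15 and 0% for the difference between the lines. With limma, 0 of 12995 genes were called in each, while 401, 302 and 294 genes had an unadjusted p under 0.05. With voom weights on the recovered reads the calls also numbered 0, with 294, 277 and 267 at an unadjusted p under 0.05. With the replicate number as a block within each line, which pairs the knockdown libraries by number, 0 genes were called as well. Then 720, 552 and 537 had an unadjusted p under 0.05. Without the block, 0 of the 6 genes reached that level in SCC25, and 1, F11R, did in SCC15. Of the 60 further pathway genes 0 were called in either line, and 3 had an unadjusted p under 0.05 in each.

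In SCC25, CLDN1 had 5.95, 6.69 and 5.94 log2 CPM in the –YBX1 libraries, against 5.66, 6.61 and 5.74 in the +YBX1 libraries. The groups overlapped, and the change of 0.19 had a 95% interval of -0.93 to 1.32. CLDN4 had 2.16, 4.08 and 2.05 after knockdown, overlapping the +YBX1 range, with a change of 0.39 (-1.26 to 2.04). Its highest value came from the library in which the 10 most abundant genes held 16.2% of reads, the largest share in the series. Without that library, SCC25 –YBX1 replicate 2, the change turned to -0.27, and without SCC25 +YBX1 replicate 3, the lowest of its group, it turned to -0.23. CLDN7 had 5.33, 5.16 and 4.58, a change of 0.20 (-0.95 to 1.35). These claudin intervals leave room for changes of more than 1 log2 unit.

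F11R and TJP1 were measured more tightly in SCC25. F11R had 7.71, 7.82 and 7.57 log2 CPM after knockdown, a change of 0.14 (95% interval -0.26 to 0.54), and TJP1 had 5.65, 5.10 and 5.61, a change of 0.03 (-0.48 to 0.54). By same-numbered pair the differences were 0.11, 0.16 and 0.15 for F11R, and 0.10, -0.40 and 0.38 for TJP1. CGN had 2.03, -0.56 and 0.87, or 20, 3 and 9 reads, with a change of 0.53 (-0.62 to 1.67) that became -0.10 without SCC25 –YBX1 replicate 1.

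In SCC15, knockdown left the claudins at the floor, with 1 to 5 reads of CLDN1, 1 to 4 of CLDN4 and 1 to 6 of CLDN7 per –YBX1 library. No change of these genes could be measured at such depth. F11R had 4.57, 4.46 and 3.84 log2 CPM after knockdown, each below the 4.67 to 4.73 of the +YBX1 libraries. The change of -0.40 (95% interval -0.80 to -0.0019, adjusted p = 1, limma) did not pass the test, and was -0.17 without SCC15 –YBX1 replicate 3. TJP1 had 3.49, 4.11 and 4.20, a change of -0.10 (-0.61 to 0.40), and CGN had 3.53, 3.83 and 4.06, a change of -0.04 (-1.19 to 1.11), both overlapping the +YBX1 libraries. YBX3 changed by -0.05 in SCC25 (-0.34 to 0.23) and by -0.10 in SCC15 (-0.38 to 0.19).

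**Figure D4:**
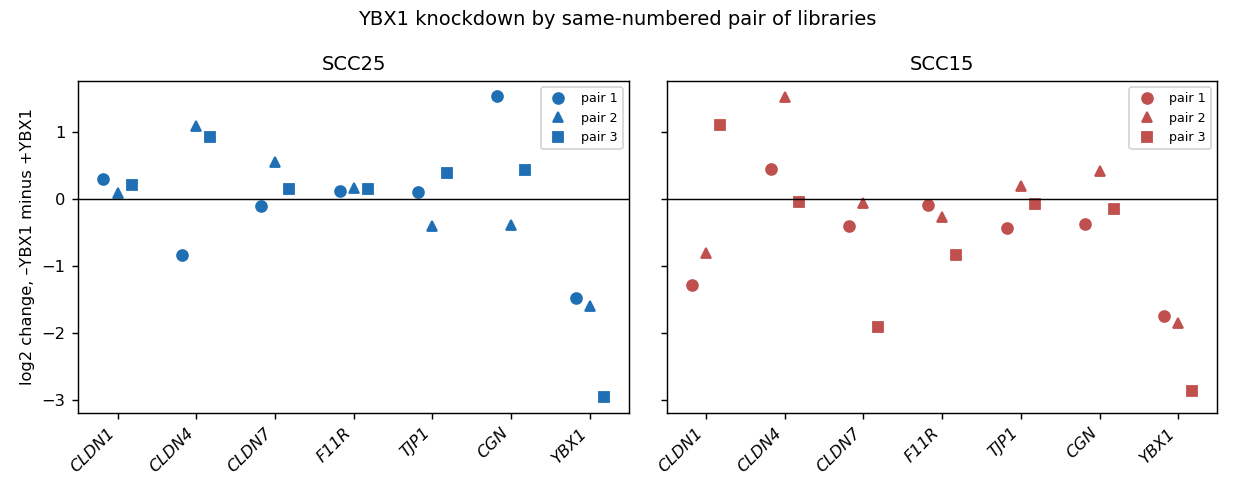
Log2 change, –YBX1 minus +YBX1 (vertical axis), in each same-numbered pair of libraries (circle, triangle and square for pairs 1, 2 and 3) for the 6 tight junction genes and YBX1, in SCC25 on the left and SCC15 on the right. YBX1 lies below -1.4 in every pair, F11R lies slightly above 0 in SCC25 and below 0 in SCC15, and CLDN4, TJP1 and CGN have pairs on both sides of 0 in each line.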

How the data were processed

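RNA was measured in 15 libraries of 3 lines, grouped and numbered as the sample labels give. The authors prepared QuantSeq 3′ FWD libraries with single reads of 75 bases. Per the submitters' processing notes, cutadapt, HISAT2, featureCounts and limma were used on hg38. The authors deposited 2 tables of log2 CPM for the same 12995 genes, already filtered. The 6 libraries in both tables differed by at most 5e-08. Read counts were recovered from the lowest value of each library, taken as 0 reads, and came out whole to within 0.02. They set floors and counting intervals, which cover counting error alone.

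Groups were compared on the deposited values with limma 3.58.1 in R 4.3.3 (lmFit, eBayes with trend, two-sided, Benjamini-Hochberg over all genes, threshold 0.05), with all groups of a table in the fit. The code was tested on simulated data. Deviations of same-numbered libraries from their group means correlated at 0.135 to 0.47 in the SCC25 knockdown and 0.117 to 0.498 in SCC15. Across lines the range was -0.198 to 0.264. Some differently numbered knockdown libraries correlated as much, at 0.239 in SCC25 and 0.345 in SCC15. The check therefore did not settle whether the labels' numbers pair the knockdown libraries. The knockdown changes and intervals given for each gene come from the fit without a block. The block was fitted as an alternative, and that within each line was added after this check. The other alternatives were quantile normalisation, equal library medians, a fit of the compared groups alone, voom, 3 reads added, eBayes without trend or with robust settings, removal of the lowest expression quartile, a threshold of 0.01 and each library left out. No libraries were near-copies (chi-square per degree of freedom 3.99 to 80.8 over 15 pairs).

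The members and gene lists were chosen with earlier results of these data known. Named pathway genes are up to 4 per role with the largest called change between SCC15 and SCC25 and no overlap between libraries, plus YBX1 and YBX3. Results withheld for evaluation are not reported here. Genes most like the members had to exceed the median gene in mean level. Positions come from GENCODE 44, promoters from RefSeq, and 3′ pieces were mapped with minimap2 2.31. Plots use matplotlib 3.10.9.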

Additional observations from a re-analysis of the deposited data

Results flagged for a closer look

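F11R was flagged by a rule applied only to the 6 tight junction genes. The rule asked for a called difference between the 2 lines, or for –YBX1 libraries all on opposite sides of their +YBX1 means. F11R met the second part, although its SCC25 groups overlapped. How many of all genes would meet the rule was not counted, so the pattern cannot be called particular to F11R. Every SCC25 –YBX1 library lay above the mean of the SCC25 +YBX1 libraries, by 0.15, 0.26 and 0.01 log2 units, and every SCC15 –YBX1 library lay below its own +YBX1 mean, with differences of -0.12, -0.23 and -0.85. The knockdown effect in SCC25 minus that in SCC15 was 0.54 (SE 0.26, 95% interval -0.02 to 1.1, adjusted p = 1, limma interaction term). The difference did not pass the test, and fell to 0.31 without SCC15 –YBX1 replicate 3, the lowest library of its group.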

How the results depend on the processing

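Over the alternatives run, the calls of CLDN1, CLDN7, TJP1 and F11R in both SCC15 comparisons and of CGN in both SCC25 comparisons were made every time, as was that of CLDN4 in both SCC15 comparisons wherever it could be tested. CLDN4 lay below the first quartile of expression, so that alternative gave it no value, nor CLDN7 in the knockdown table. For SCC25 against OKF6 the members called numbered 2, CLDN4 added, with 3 reads added before the log, and 1 to 2 with a library left out (2 without OKF6 replicate 1). With the lowest expression quartile removed, 41 of the 60 pathway genes were tested, and the called ones numbered 25 for SCC15 against OKF6, 11 for SCC25 against OKF6 and 18 for SCC15 against SCC25. In the same order, 4563, 2967 and 3838 of all 9746 genes tested were called. After knockdown 0 members were called under any alternative, the lowest adjusted p being 0.916 in SCC25, 0.996 in SCC15 and 0.976 for the difference, and 23 of 312 refitted changes had the other sign. Adding the replicate block, over all groups or within each line, changed no call of a member: 0 were called after knockdown with it. All-gene calls between SCC15 and SCC25 numbered 5672 with all 3 lines fitted and 7748 with those 2 alone. For SCC25 against OKF6 they numbered 2206 at an adjusted p under 0.01, against 3923 at 0.05. Depth limits the SCC15 claudins, at 0 to 6 reads per library, and CGN in SCC25, at 3 to 20.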
